A study of Mus musculus with 10 samples.

Results

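Complement is the cascade of plasma and cell-surface proteins that marks particles and cells for uptake or lysis, and 9 of its components, regulators and receptors were followed here in pancreatic islets of diabetic and lean mice: C1s, C2, C4b, C3, Cfb, Cfd, Cfi, Cd55 and C3ar1. The members were taken by gene symbol, and they are 9 of 19861 genes named on the array, with 12 of its 23512 probes. None of the 12 was blank on any of the 10 arrays, and all entered the test, among 23138 probes tested in all. The islets came from 5 db/db samples and 5 db/+ samples, all at 9 weeks of age and on the C57BLKS/J background. The db allele disrupts the leptin receptor gene; db/db mice carry 2 copies and were, per the labels, obese and severely hyperglycaemic at this age, and db/+ mice carry 1 copy and were lean. On every array the islet sample carried the Cy5 dye and a common reference, given as db/+ islet RNA of the same age, carried Cy3. A ratio near 0 on the log2 scale therefore means a signal like that of the db/+ reference. The labels call the samples biological replicates and do not say how many mice gave each one.

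The classical route of complement starts when C1q binds a surface and its partner proteases C1r and C1s cut C4 and C2. The lectin route reaches the same step through mannose-binding lectins and collectins. Both routes, and the alternative route built from factor B and factor D, lead to cleavage of C3, whose fragment C3b tags surfaces and whose fragment C3a acts on a receptor, C3ar1. Factor I, with cofactors, breaks C3b down, and CD55 on the cell membrane makes the enzymes that cut C3 fall apart. Plasma complement comes mostly from liver, but macrophages and fibroblasts also transcribe many of its genes, and expression of C3 is known in human islets.

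Of the 12 member probes, 6 were higher in db/db islets at a limma adjusted p under 0.05 and none was lower. Over all tested probes, 15.9% were called higher and 17.1% lower in db/db islets, 33% in either direction. Before adjustment over all probes 2 member probes, those of C2 and Cfd, fell under the same threshold in the lower direction. The 6 called probes belong to 5 genes, C1s, C4b, C3, Cfb and Cfi, and the 4 genes with no called probe were C2, Cfd, Cd55 and C3ar1. In the same 6 probes every db/db ratio lay above every db/+ ratio, an arrangement found for 12.1% of the 21954 probes with 10 values, against 12.4% in which every db/db ratio lay below. No member probe had that second arrangement. In these whole islets more cells of a type and more RNA per cell cannot be told apart. The median log2 difference of db/db minus db/+ was 0.61 over the 12 member probes and -0.02 over all tested probes. Arrays of db/db islets had a wider spread of ratios over all probes, with SDs of 0.477 to 0.537, than arrays of db/+ islets, with SDs of 0.194 to 0.309.

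**Figure D1:**
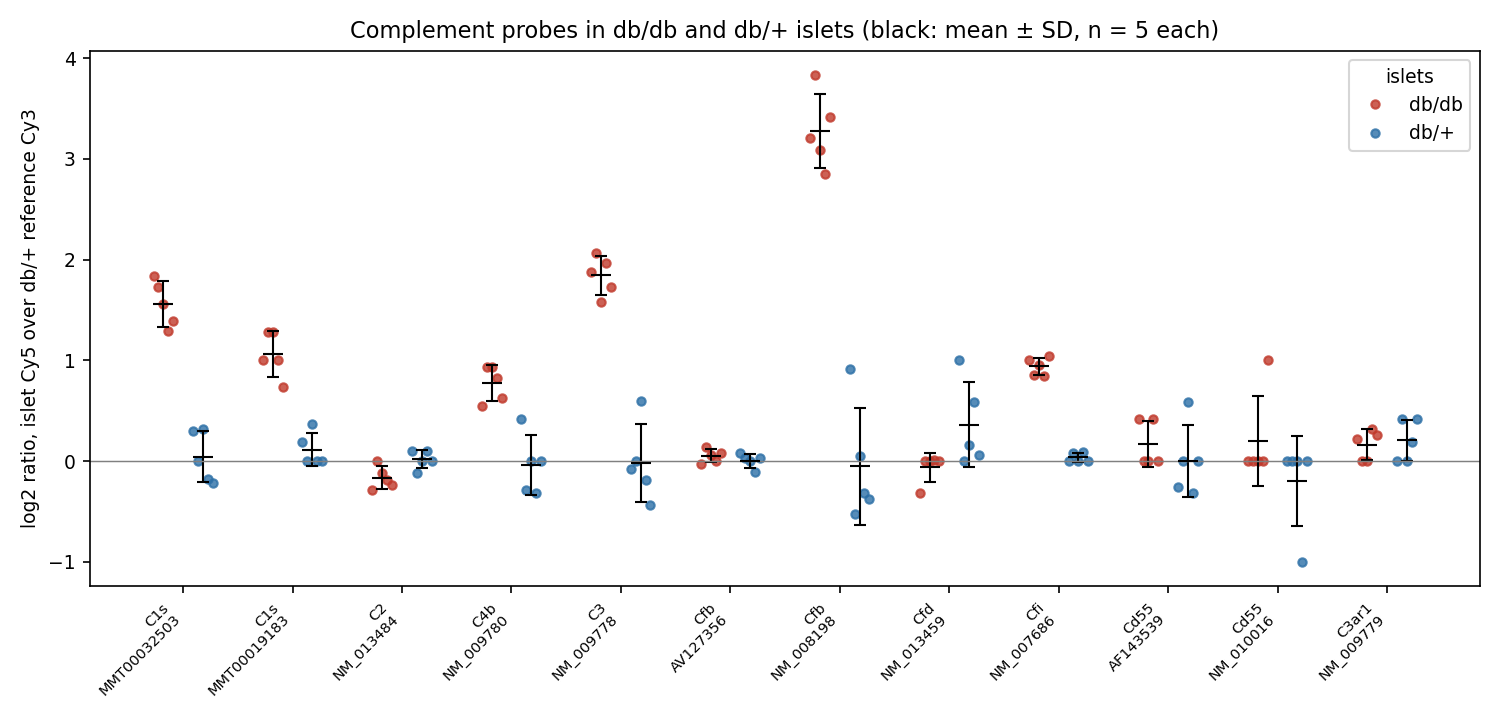
Log2 ratio of islet Cy5 over reference Cy3 for each of the 12 member probes, 1 point per array, with db/db islets in red left of db/+ islets in blue and the mean and SD in black (n = 5 each). The Cfb probe NM_008198 stands highest, with db/db ratios of 2.86 to 3.83 against db/+ ratios of -0.53 to 0.92, and its other probe, AV127356, lies near 0 in both groups.

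C1s, the protease that cuts C4 and C2, was measured by a pair of probes, and both were higher in db/db islets. The Cy5 intensity of the first, MMT00032503, was 1.5, 1.52, 1.18, 1.05 and 1.02 units in db/db replicates 1 to 5, against 0.53, 0.48, 0.55, 0.38 and 0.36 units in db/+ replicates 1 to 5. Its Cy3 reference on the same arrays stayed between 0.39 and 0.46 units with db/db islets and between 0.42 and 0.48 units with db/+ islets. All db/db values lay well above all db/+ values, and within db/db islets replicates 1 and 2 were the highest. The log2 difference was 1.51 ± 0.14 (SE, n = 5 each), 2.86-fold, with a limma adjusted p of 5.37e-05. The second probe, MMT00019183, gave 0.14, 0.17, 0.17, 0.14 and 0.10 units in db/db islets, against 0.08, 0.07, 0.09, 0.07 and 0.06 units in db/+ islets, on a scale rounded to 0.01 units. Its difference was 0.95 ± 0.12, 1.93-fold, with an adjusted p of 0.000262. Quantile normalization of the ratios between arrays ended the call of the second probe, at 0.52 and an adjusted p of 0.0594, and left the first called. The array's symbol C1s corresponds to C1s1 in RefSeq, and whether the probes also read its close copy C1s2 cannot be told from the files.

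C4b and C2 form the enzyme that cuts C3 on the classical and lectin routes, and they did not move together. C4b (NM_009780) had 0.19, 0.21, 0.23, 0.23 and 0.20 units in db/db islets, against 0.16, 0.09, 0.12, 0.08 and 0.11 units in db/+ islets. The groups did not overlap, and db/+ replicate 1 came closest to the db/db values. Its log2 difference was 0.81 ± 0.15, 1.76-fold, with an adjusted p of 0.00218. After quantile normalization the difference was 0.58 with an adjusted p of 0.104. C4b has a near-identical neighbour, C4a, whose own probe showed a difference of 0.86 ± 0.16, and the signal of either probe cannot be assigned to a single copy.

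C2 (NM_013484), the protease subunit of that enzyme, had 0.09, 0.15, 0.12, 0.14 and 0.11 units in db/db islets, against 0.15, 0.12, 0.15, 0.15 and 0.11 units in db/+ islets. Its log2 ratios were -0.29, 0.00, -0.12, -0.19 and -0.24 in db/db islets, against 0.10, -0.12, 0.00, 0.10 and 0.00 in db/+ islets, so the groups overlapped. The difference was -0.18 ± 0.06 with an adjusted p of 0.0531. This value sat at the threshold: without db/db replicate 2 the adjusted p was 0.0158, without db/+ replicate 2 it was 0.0306, and over all alternatives it ran from 0.0158 to 0.397.

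C3, the protein on which all routes converge, was 3.64-fold higher in db/db islets. Probe NM_009778 read 6.08, 6.34, 4.87, 6.47 and 5.08 units in db/db islets, a mean of 5.77 ± 0.741 (SD, n = 5), against 1.56, 1.71, 2.50, 1.38 and 1.14 units in db/+ islets, a mean of 1.66 ± 0.516 (SD, n = 5). The lowest db/db value was still above the highest db/+ value, that of replicate 3. The reference signal was 1.51 to 1.66 units on db/db arrays and 1.54 to 1.71 units on db/+ arrays, so the difference lay in the islet channel. The log2 difference was 1.87 ± 0.18 with a limma adjusted p of 5.63e-05, and it ranked 145 among the 23138 probes ordered from the highest difference down.

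Promoter sequence from RefSeq (assembly GRCm38.p6) was at hand for 5 of the 9 members, each as a window of 250 bases before and 50 bases after the gene's annotated start. No window was at hand for C2 or for the called genes C4b, Cfb and Cfi, so these could not be searched. The windows of C3 and C1s1 are shown because both genes rose and both windows hold the letters TTNNGCAA, a pattern bound by C/EBP factors, which act on many acute phase genes. Capitals mark that pattern and, in C3, the letters TATAAA, and both sequences read 5′ to 3′ along the gene.
C3, chr17:57228087-57228386, minus strand: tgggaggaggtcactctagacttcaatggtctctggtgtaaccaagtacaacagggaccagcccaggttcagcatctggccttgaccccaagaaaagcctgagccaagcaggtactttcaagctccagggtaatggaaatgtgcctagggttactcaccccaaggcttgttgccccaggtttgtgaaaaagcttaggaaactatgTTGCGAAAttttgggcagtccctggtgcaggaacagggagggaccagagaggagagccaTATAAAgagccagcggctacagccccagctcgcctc
C1s1, chr6:124542310-124542609, minus strand: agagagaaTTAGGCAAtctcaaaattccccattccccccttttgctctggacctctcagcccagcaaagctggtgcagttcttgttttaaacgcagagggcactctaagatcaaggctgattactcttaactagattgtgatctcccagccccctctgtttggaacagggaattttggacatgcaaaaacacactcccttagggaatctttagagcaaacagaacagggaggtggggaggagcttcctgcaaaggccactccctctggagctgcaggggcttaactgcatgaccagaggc
Positions are counted from 1 at the 5′ end of each window, and both strands were searched. The C3 match is the reverse complement, TTGCGAAA at bases 206 to 213. TATAAA stands at bases 265 to 270, past the annotated start, with its first base at position 15 of the gene. The C1s1 match, TTAGGCAA, stands at bases 9 to 16, and a second annotated start of C1s1 gives a window that does not reach it. Among 32851 mouse promoter windows of 300 bases, 10.8% held TTNNGCAA and 13.6% held TATAAA. The TATA letters also stood in the window of C3ar1, which did not pass the test, with their first base at -235 from the annotated start. A loose NF-kB pattern, GGG and CC with 5 free bases between, was in the windows of all 5 members and in 50.8% of all windows. The STAT pattern TTCNNNGAA (8.30% of windows) and the interferon response pattern, GAAA repeated after 2 free bases (3.44%), were in none of the member windows. A match describes letters in a window and says nothing about binding in these islets.

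Cfb encodes factor B, the protease subunit of the alternative route's enzyme, and its probe NM_008198 showed the largest difference among the members. It read 2.96, 3.99, 2.56, 2.17 and 3.09 units in db/db islets, a mean of 2.95 ± 0.682 (SD, n = 5), against 0.51, 0.18, 0.27, 0.20 and 0.20 units in db/+ islets, a mean of 0.272 ± 0.137 (SD, n = 5). All 5 db/db samples were high, and among db/+ samples replicate 1 stood above the other 4 at a log2 ratio of 0.92. The log2 difference was 3.33 ± 0.29, 10.1-fold, with a limma adjusted p of 2.94e-05, rank 14 of 23138. The Cy3 reference of this probe was slightly brighter on the db/db arrays, 0.28 to 0.32 units against 0.25 to 0.27 units on the db/+ arrays. The log2 difference of the reference was 0.17, with a limma p of 0.0075 before and 0.871 after adjustment over all probes. With Cy5 alone the probe was called as well, at an adjusted p of 2.55e-06.

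The second Cfb probe, AV127356, read 0.56, 0.67, 0.52, 0.53 and 0.53 units in db/db islets, against 0.59, 0.52, 0.59, 0.50 and 0.55 units in db/+ islets. These groups overlapped, with a difference of 0.05 ± 0.05 and an adjusted p of 0.472. The 2 probes of Cfb therefore disagree, and where each lies in the transcript is not given in the sources used here. When each gene was represented by its brightest probe in the reference, AV127356 stood for Cfb, the gene was not called, and 4 member probes were called in place of 6, since C1s also kept 1 probe. Cfb and C2 are neighbours on chromosome 17, with no protein-coding gene between them in the RefSeq table, and their probes NM_008198 and NM_013484 showed differences of 3.33 and -0.18.

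Cfd encodes factor D, or adipsin, which cuts factor B and is secreted mainly by adipocytes. Its probe (NM_013459) was dim, with Cy5 signals of 0.00496 to 0.03 units in db/db islets, against 0.00854 to 0.03 units in db/+ islets. The log2 ratios were -0.32, 0.00, 0.00, 0.01 and 0.00 in db/db islets, against 1.00, 0.00, 0.16, 0.59 and 0.06 in db/+ islets. The difference of -0.42 ± 0.19 did not pass (adjusted p = 0.117), and Cy5 alone gave -0.03 with an adjusted p of 0.981. At this signal the rounding step of 0.01 units is about as large as the values, and a difference could not be resolved. None of 10 adipocyte marker probes was called, 5 of them were under the lower quartile of reference intensity, and their summed Cy5 signal was 1.32 to 1.70 units in db/db islets, against 1.68 to 1.76 units in db/+ islets. Among the dim ones Adipoq read 0.040 ± 0.010 units in db/db islets and 0.032 ± 0.008 units in db/+ islets (SD, n = 5 each).

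Cfi encodes factor I, the protease that breaks C3b and C4b down, and it had the smallest adjusted p of the members. Probe NM_007686 read 0.32, 0.29, 0.29, 0.27 and 0.33 units in db/db islets, against 0.16, 0.18, 0.15, 0.16 and 0.16 units in db/+ islets. Both groups were tight, with log2 ratios of 0.85 to 1.04 in db/db islets and of 0.00 to 0.09 in db/+ islets. The difference was 0.91 ± 0.05, 1.87-fold, with a limma adjusted p of 1.99e-06. The probes whose ratios ran closest to Cfi over the 10 arrays, among 16167 with 10 values and a reference above the lower quartile, were those of Bckdhb, Galnt12 and Soat1, with root mean square differences of 0.0732, 0.0889 and 0.0918 on the log2 scale. For C2, the member with the lowest p in the other direction, they were Paqr3, A230083G16Rik and E230015B07Rik, at 0.0595, 0.0601 and 0.0604.

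Cd55, the membrane regulator that takes the C3-cutting enzymes apart, was dim on both of its probes. Probe AF143539 read 0.03 or 0.04 units in db/db islets, against 0.03 to 0.05 units in db/+ islets, with a difference of 0.17 ± 0.18 and an adjusted p of 0.506. Its direction turned with Cy5 alone, to -0.33 (adjusted p = 0.0877), and its reference averaged 0.030 units on db/db arrays and 0.042 units on db/+ arrays. The log2 difference of that reference was -0.54, with a limma p of 0.0116 before and 0.871 after adjustment. Probe NM_010016 read 0.02 units in all db/db islets, against 0.01 to 0.03 units in db/+ islets, with a difference of 0.40 ± 0.26 and an adjusted p of 0.286, which with Cy5 alone came to 0 within rounding. Its signal amounts to a few rounding steps, so a change of Cd55 was not detectable at this brightness. Its paralog Daf2, measured by a pair of probes, gave -0.08 and -0.02 (adjusted p = 0.464 and 0.922).

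C3ar1 is the receptor for C3a, which in mice is known to raise insulin secretion from beta cells. Its probe (NM_009779) read 0.07, 0.07, 0.05, 0.05 and 0.06 units in db/db islets, against 0.06, 0.04, 0.03, 0.08 and 0.04 units in db/+ islets. The values overlapped and the ratios differed by -0.04 ± 0.11 (adjusted p = 0.802), with a sign that turned with Cy5 alone (0.22, adjusted p = 0.514).

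**Figure D2:**
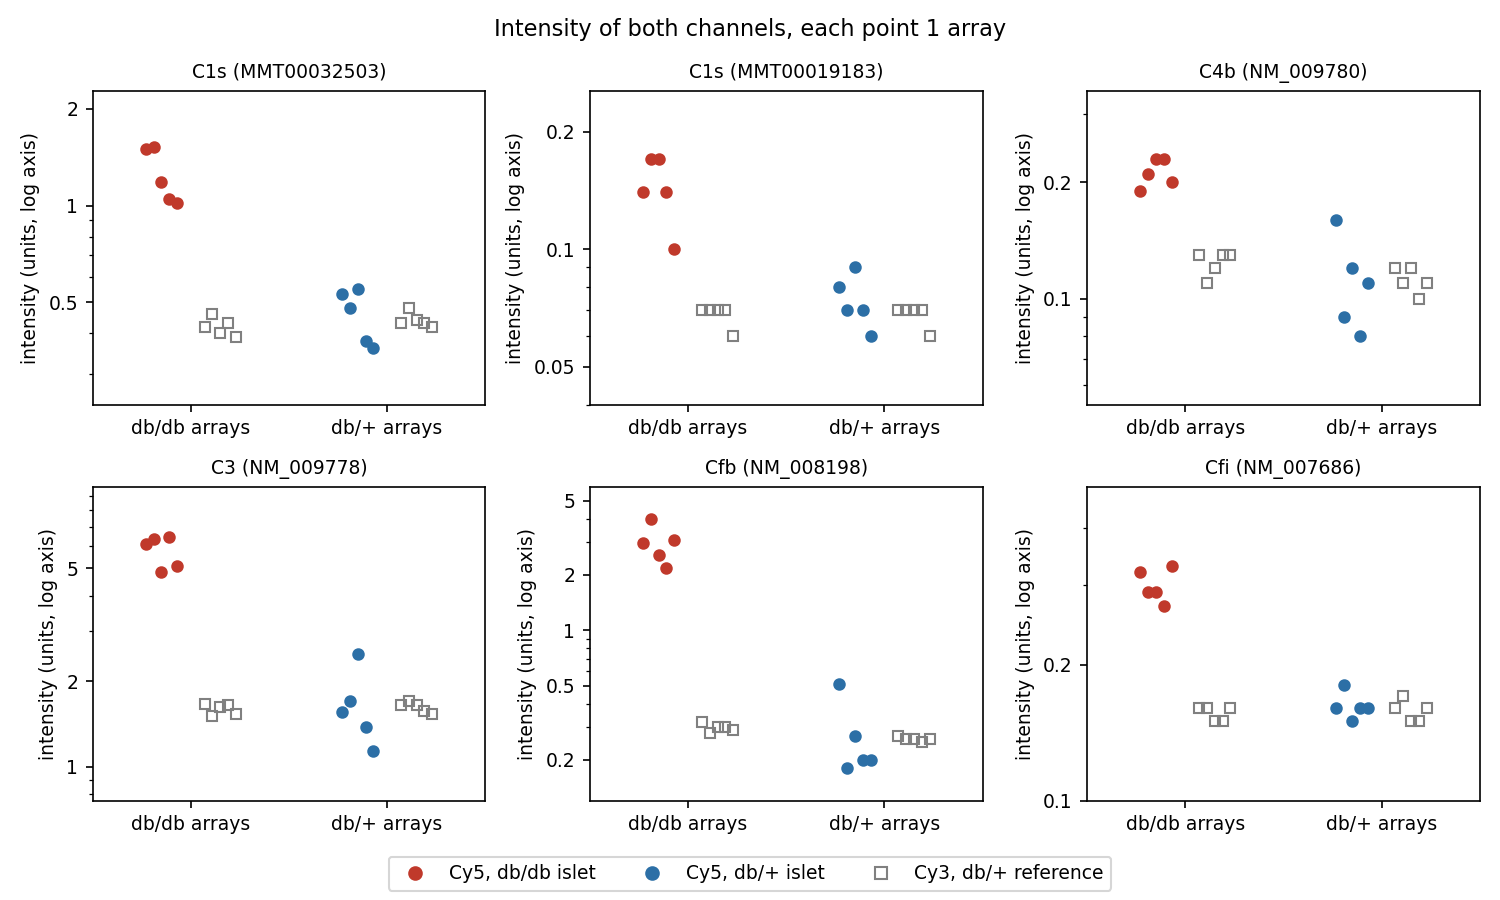
Intensity in arbitrary units on log axes for the 6 called member probes, with the islet Cy5 signal as filled points (db/db red, db/+ blue) and the db/+ Cy3 reference of the same arrays as open squares. For C3 the db/db islets lie at 4.87 to 6.47 units, above the db/+ islets at 1.14 to 2.50 units, while the reference squares stay at 1.51 to 1.71 units on all arrays.

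The authors' own p-value is given for each probe on each array, by a method not stated. In the authors' deposited table it was under 0.01 on all 5 db/db arrays for the same 6 probes that limma called and for no other member probe. On db/+ arrays the authors' deposited table put it under 0.01 on 2 arrays each for C3 and for Cfb (NM_008198), and on none for the other member probes. Those 2 genes were also the members whose db/+ samples spread most among the called probes, with SDs of the log2 ratio of 0.38 and 0.58. The Cy3 channel, which held db/+ reference on every array, gave 5 called probes of 23138 when db/db arrays were set against db/+ arrays, none of them a member.

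Other complement genes on the array were grouped by role, with 47 probes of 43 genes reported. Of these, 16 were higher and 3 lower in db/db islets and 28 were not called, with a median difference of 0.03. Over all tested probes 15.9% were higher, 17.1% lower and 33% called in either direction, with a median of -0.02. The counts by role and by list below stand beside these same shares, and no test of them was run. On the classical and lectin routes 6 of 13 probes were higher and none lower. C1ra, the partner protease of C1s and its direct neighbour on chromosome 6, read 0.45 to 0.63 units in db/db islets, against 0.17 to 0.26 units in db/+ islets, a difference of 1.11 ± 0.14 and 2.16-fold (adjusted p = 0.000256). The surface sensors Mbl2 and Colec11 were 2.21-fold and 2.15-fold higher (adjusted p = 0.000265 and 0.000448). Of the C1q chains, C1qa rose 1.87-fold (adjusted p = 0.00183) and C1qc 1.51-fold (adjusted p = 0.0116), while C1qb, at 0.09 to 0.10 units in db/db islets and 0.09 to 0.11 units in db/+ islets, showed 0.04 ± 0.09 (adjusted p = 0.804). C4a, at 1.82-fold, was the remaining call. Masp1, a lectin route protease, was dim and gave -0.20 (adjusted p = 0.46).

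Several inhibitors of the cascade were higher as well. Serping1, the inhibitor of C1r and C1s, read 8.74 to 10.26 units in db/db islets, against 3.42 to 5.25 units in db/+ islets, and no value was shared between the groups. The difference was 1.09 ± 0.06, 2.14-fold (limma adjusted p = 2.3e-06). C4bp, a cofactor for C4b breakdown, was 2.10-fold higher (adjusted p = 0.000965), and Clu, which blocks the terminal complex, was 1.47-fold higher (adjusted p = 0.0357). In all, 3 of 5 fluid-phase regulator probes were higher and none lower. On the membrane 5 of 10 probes were higher: Thbd 2.08-fold, Cd46 1.64-fold, Susd4 1.57-fold, Cd59b 1.46-fold and Cd59a 1.25-fold, with adjusted p from 7.17e-05 to 0.00322. For Cd46, Cd59b and Cd59a the groups lay only a few rounding steps of 0.01 units apart. Cd46 averaged 0.084 units in db/db islets and 0.048 units in db/+ islets, Cd59b 0.096 and 0.062, and Cd59a 0.122 and 0.1. With Cy5 alone Cd59a was not called (limma adjusted p = 0.111). Of the 10 membrane probes, 5 had a difference below 0, among them Cr1l at -0.27 (adjusted p = 0.269). A Csmd1 probe was the only one called lower, with a ratio 1.17-fold lower (adjusted p = 0.0339). Its islet signal was not lower, with means of 0.072 units in db/db islets and 0.07 units in db/+ islets. Cy5 alone gave -0.03 (limma adjusted p = 0.897). The reference of this probe averaged 0.084 units on db/db arrays and 0.07 units on db/+ arrays.

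Of 19 further probes grouped under the alternative route and amplification, the terminal pathway and the receptors, 4 were called in either direction, beside 33% of all tested probes, and no test of that difference was run. In the first of these groups 1 of 3 probes was called. It was that of Cpn1, a carboxypeptidase that inactivates C3a and was only grouped with the alternative route, 1.47-fold higher (adjusted p = 0.00449). Properdin, Cfp, a protein of that route, gave -0.06 (adjusted p = 0.617). None of the 7 probes of the terminal pathway, which builds the membrane attack complex, was higher and 2 were lower, C8b by 1.35-fold (adjusted p = 0.00425) and C8g by 1.18-fold (adjusted p = 0.042). Hc, the mouse gene of C5, gave 0.32 (adjusted p = 0.289), and 5 of the 7 probes were dim. Among 9 receptor probes only Itgax, a chain of an iC3b receptor, was called, 1.45-fold higher (adjusted p = 0.0211). Itgam gave 0.03 and Itgb2, which was dim, -0.40 (adjusted p = 0.953 and 0.286). Quantile normalization ended 8 of the 16 higher calls and all 3 lower ones; Mbl2, C1ra, Colec11, Cpn1, Serping1, C4bp, Susd4 and Cd59b passed under every alternative run. The call of Itgax ended without db/db replicate 5, db/+ replicate 4 or db/+ replicate 5, and those of C8g, Csmd1 and Clu ended when any 1 of 8, 7 and 7 samples was left out, with adjusted p of at most 0.0958, 0.0711 and 0.0786.

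**Figure D3:**
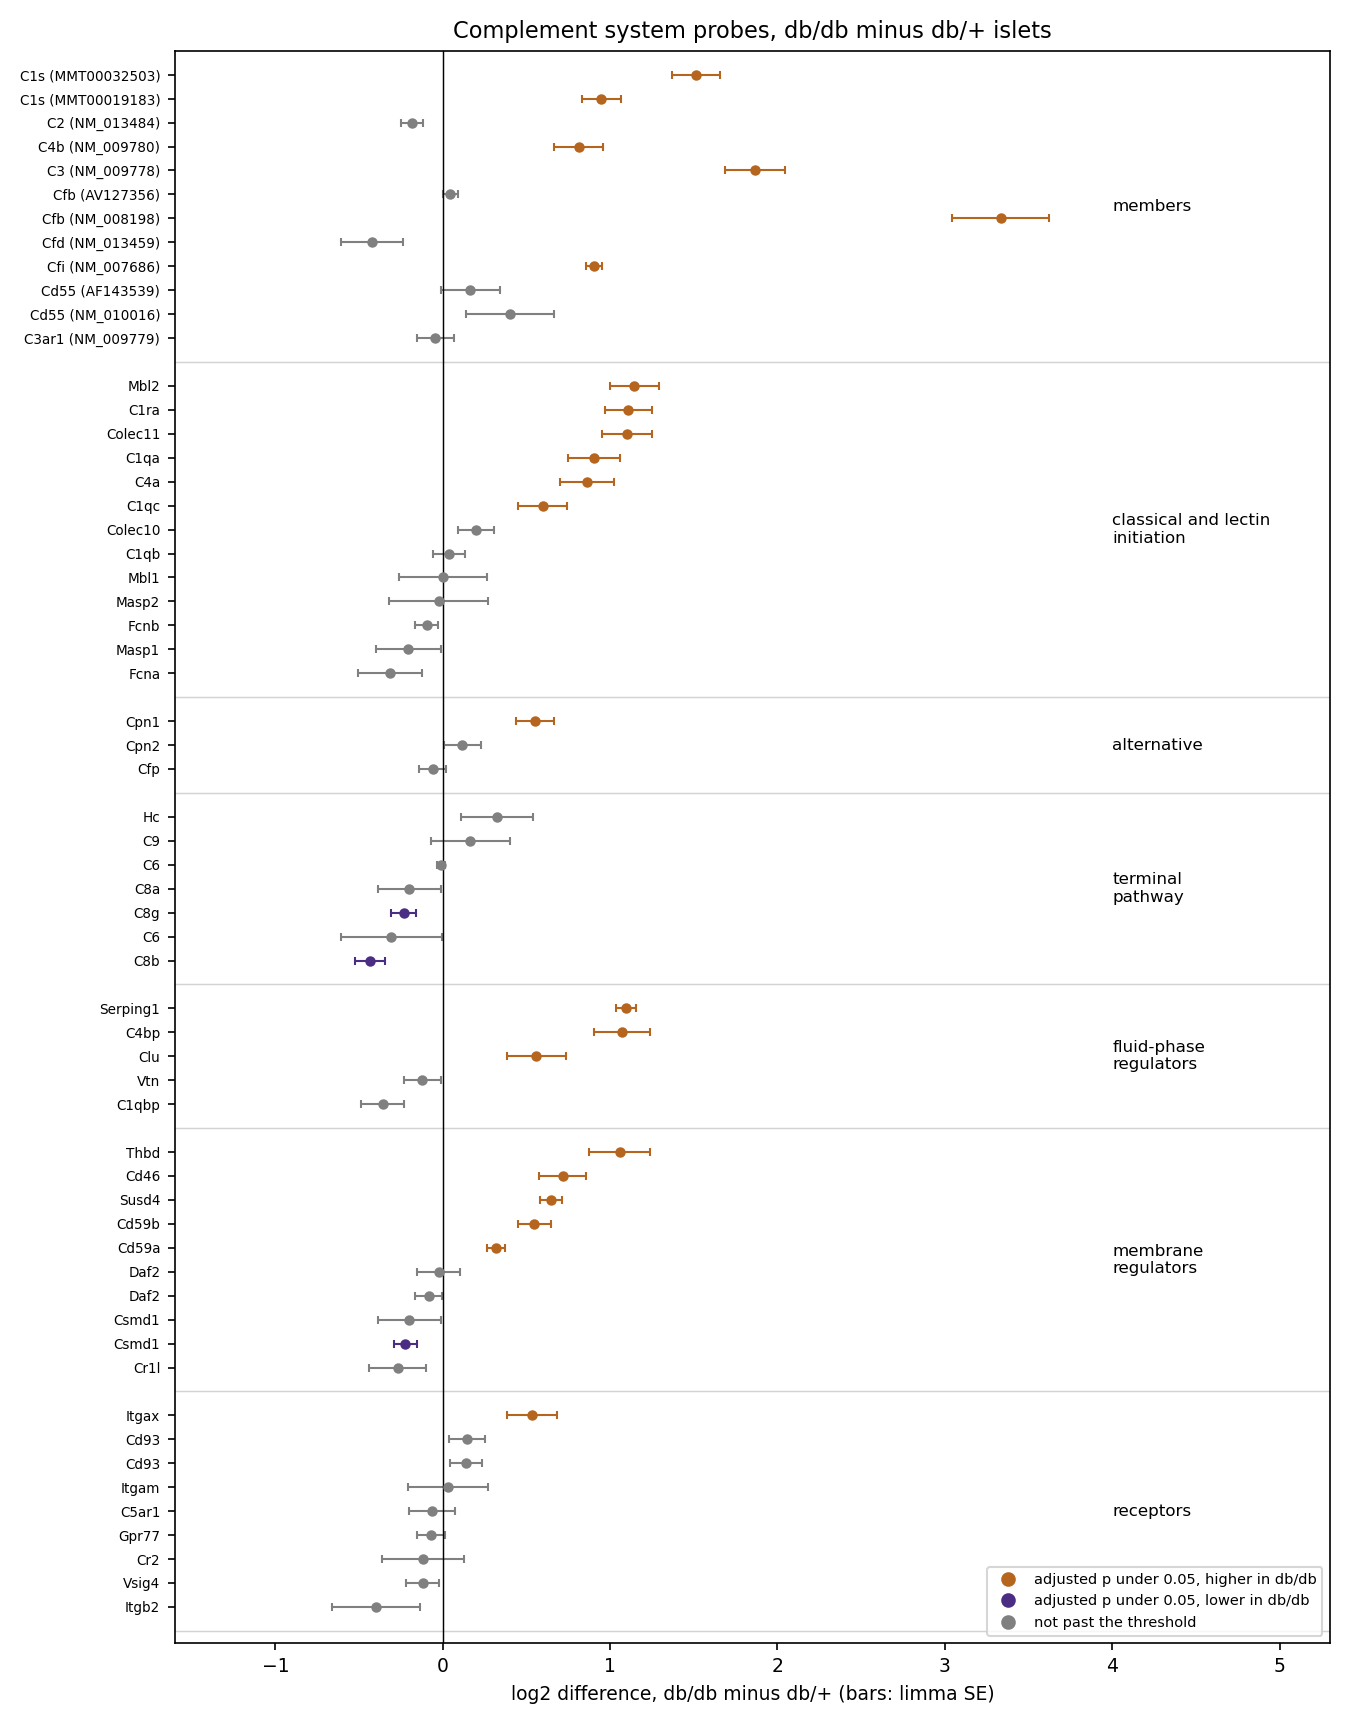
Log2 difference of db/db minus db/+ with its limma SE for the 12 member probes and the 47 other complement probes, grouped by role, where orange marks higher and purple lower calls at an adjusted p under 0.05. Cfb (NM_008198), C3 and C1s (MMT00032503) extend farthest to the right at 3.33, 1.87 and 1.51, and no terminal pathway probe is called higher.

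Lists of genes that respond with complement in other settings were counted alongside. Of 18 acute phase probes, 4 were higher and none lower in db/db islets: Fgb and Fgg, chains of fibrinogen, at 5.63-fold and 2.48-fold (adjusted p = 4.73e-05 and 0.00046), Hp at 2.47-fold (adjusted p = 0.0031) and Cp at 1.89-fold (adjusted p = 0.0161). The median of the list was 0.04. The 14 probes not called included Fga, another fibrinogen chain, at -0.12 (adjusted p = 0.0834). Saa3 at -0.04, Lbp at -0.04 and Lcn2 at 0.08 were also not called (adjusted p = 0.801, 0.826 and 0.301). Of 21 tested probes of interferon gamma response genes, 11 were higher and 2 lower, with a median of 0.40. The higher ones were led by Ifit2 at 4.13-fold, Isg15 at 1.93-fold and Gbp2 at 2.08-fold (adjusted p = 0.000241, 0.000257 and 0.000491). The lower calls included a B2m probe at -0.33 (adjusted p = 0.021), and the other B2m probe gave -0.03 (adjusted p = 0.633). Ciita and Ifit1 gave 0.04 and -0.05 (adjusted p = 0.627 and 0.959). Of 17 tested probes of IL-6 and NF-kB response genes, 2 were higher and 10 lower, with a median of -0.40. Relb was 3.20-fold lower, Rela 1.86-fold lower and Cebpd 2.02-fold lower (adjusted p = 5.8e-06, 0.0002 and 0.000238), and the higher ones were Il6 at 3.88-fold (adjusted p = 0.0262) and Ccl2 at 4.01-fold (adjusted p = 0.000858).

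Markers of other cells also differed between the groups, and their part in the complement differences was not tested. Fibroblast and stellate cell markers were higher on 10 of 12 probes and lower on none, with a median difference of 1.42 and a summed Cy5 signal of 3.94 to 7.94 units in db/db islets, against 1.20 to 2.34 units in db/+ islets. Col3a1 was 6.55-fold and Pdgfrb 2.63-fold and 2.69-fold higher on its probes (adjusted p = 6.19e-05, 7.6e-05 and 0.000118). Macrophage markers were higher on 6 of 12 probes and lower on none, with a median of 0.42 and a summed signal of 3.52 to 4.14 units in db/db islets, against 2.29 to 3.20 units in db/+ islets. Mpeg1, Fcgr1 and Lyz2 were 1.75-fold, 2.23-fold and 1.37-fold higher (adjusted p = 0.00031, 0.000365 and 0.00322). Emr1 and Cd68, from the same list, gave 0.07 and -0.10 (adjusted p = 0.664 and 0.205). Cd163 was near the floor, at 0.020 ± 0.007 units in db/db islets and 0.014 ± 0.005 units in db/+ islets.

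Lymphocyte markers were higher on 3 of 8 probes, Cd79a, Lck and Cd79b, with summed signals of 12.7 to 15.9 units in db/db islets, against 7.70 to 19.4 units in db/+ islets. Duct markers were higher on 3 of 9 tested probes, and endothelial markers were higher on 1 and lower on 1 of 8. Acinar markers were lower on 1 of 2 tested probes, Amy2b, and their summed signal was 8.67 to 19.6 units in db/db islets, against 19.5 to 28.1 units in db/+ islets. The labelled tissue was checked with endocrine markers, of which 4 of 7 tested probes were lower and none higher, with a median of -0.54. Kcnj11, a channel subunit of beta cells, was 2.07-fold lower at 6.80 ± 0.444 units in db/db islets and 13.01 ± 0.949 units in db/+ islets (SD, n = 5 each, adjusted p = 7.02e-07). Another 6 of the 13 endocrine probes had too few values in a group to be tested. Among these, Chgb had log2 ratios of 0.33 to 1.25 over its 5 db/db arrays and Iapp of 0.12 to 0.50 over 3, both above the reference, while Slc2a2 had -2.48 to -1.58 and Slc30a8 -1.11 to -0.53 over 5, with no value on db/+ arrays for any of the 4. The array's Ins1 probe was dim, at 0.044 units in db/db islets and 0.042 units in db/+ islets.

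**Figure D4:**
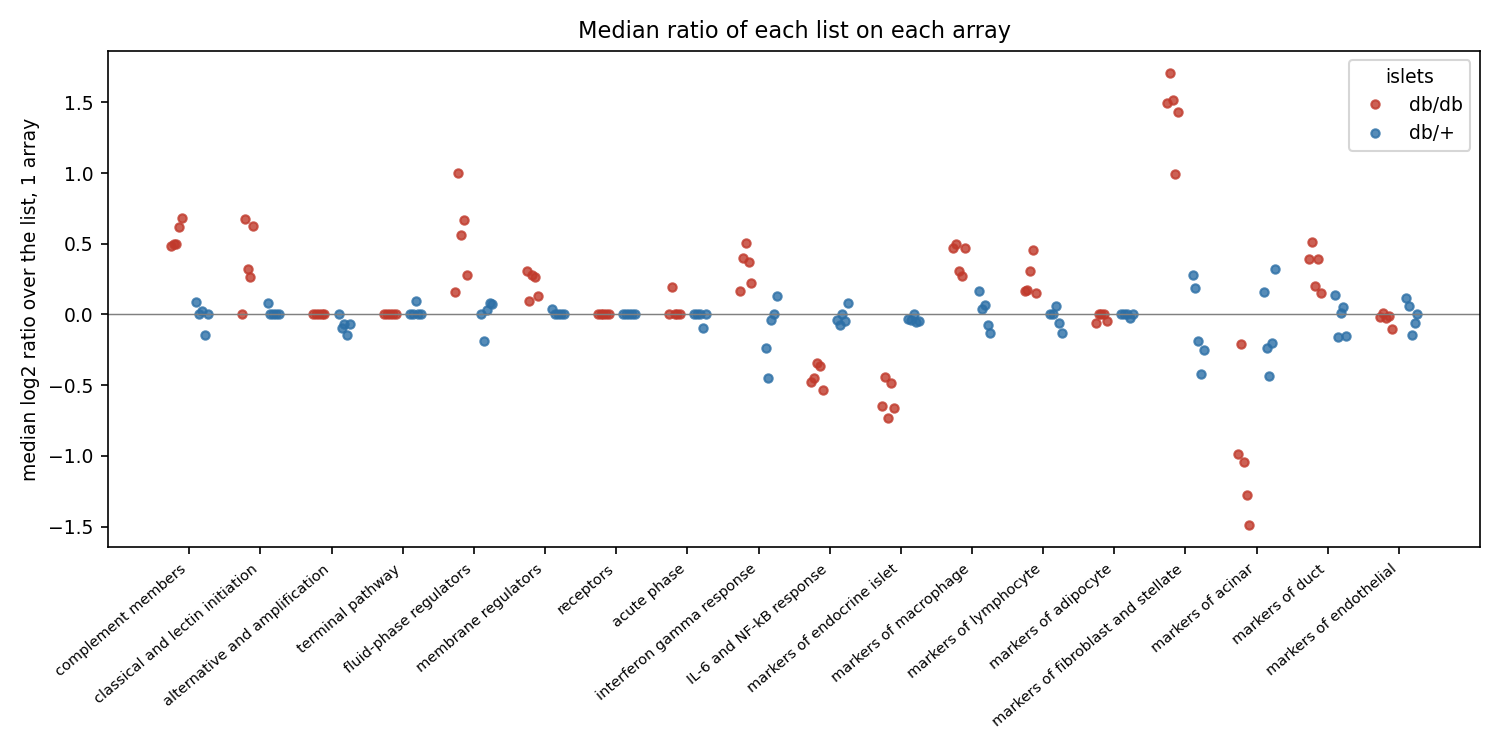
Median log2 ratio over the tested probes of each list on each array, 1 point per array. The db/db islets are in red, left of the db/+ islets in blue. The complement members lie at 0.48 to 0.68 on db/db arrays and at -0.14 to 0.09 on db/+ arrays, and the fibroblast and stellate markers at 0.99 to 1.71 and at -0.42 to 0.28.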

How the data were processed

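Islet RNA of 5 db/db and 5 db/+ samples was hybridised to 1 array of 2 colours each, all in the same dye orientation, after Trizol extraction and amplification in 2 rounds from 100 ng, per the labels' protocols. The submitters' processing notes name Agilent Feature Extraction 8.5.1.1. The deposited intensities of both channels are in arbitrary units, per the file headers, mostly rounded to 0.01, and 27.45% of the reference values did not exceed 0.05 units. The deposited series values are log10 ratios of Cy5 over Cy3, checked against the intensities to within 1e-06. The authors' p-value per probe and array is given, per the file headers, by a method not stated. How background and dye effects were treated, and why some spots are blank, is not given in the sources used here. Between 22657 and 23365 of 23512 probes had a value per array. The number of arrays limits the precision.

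Ratios were turned to log2 with no pseudocount or further scaling. Probes with at least 3 values per group were fitted with limma 3.58.1 in R 4.3.3 (lmFit, eBayes, no covariate, Benjamini-Hochberg over all 23138 probes, threshold 0.05, 2-sided). SE is the moderated standard error, and a fold is the log2 difference on the linear scale. A dim probe has a mean reference under the lower quartile, 0.049 units. The Cy3 channel was tested likewise after quantile normalization. Tests were checked on simulated data. Symbols were updated through RefSeq (GRCm38.p6).

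Every member was named with each probe. Other complement genes were named by role, the 12 calls of smallest adjusted p plus a set list, and marker lists by their 3 smallest adjusted p. The remaining called complement genes, markers and list genes, and the uncalled markers and list genes given with values, were named after their values were seen. Some genes of these lists are not reported here and were left out of the list counts. Members, lists and these rules were chosen with earlier results of these data known. The alternatives were other scalings, filters, weights and tests, 1 probe a gene, the replicate number as a block, and each replicate left out. The groups share replicate numbers, but same-numbered samples were not treated as pairs. Figures were drawn with matplotlib 3.10.9.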

Additional observations from a re-analysis of the deposited data

Results flagged for a closer look

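Among the 12 member probes in each of the 2 groups, 24 sets of 5 log2 ratios, 3 had 1 sample far from the other 4, by a gap over the whole range above Dixon's limit of 0.71. Chance gives about 1 in 20 such sets. For Cfd, db/db replicate 1 had -0.32, against 0.00 to 0.01 in the other db/db samples. For the Cd55 probe NM_010016, db/db replicate 5 had 1.0, against 0.00 in the other db/db samples, and db/+ replicate 4 had -1.0, against 0.00 in the other db/+ samples. All 3 lie on probes under the lower quartile of reference intensity, and neither probe passed the test between groups. Both Cd55 values are a step of 0.01 units between channels that read 0.01 or 0.02 units.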

How the results depend on the processing

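Over 22 alternatives, 238 of 250 values of member probes kept both their direction and their side of the threshold, 7 changed side only and 5, none of them called, turned direction. Those were, with Cy5 alone, Cd55 at -0.33 (AF143539) and -0.00012 (NM_010016) and C3ar1 at 0.22, and C3ar1 at 0.0096 without db/+ replicate 2 and without db/+ replicate 5, within -0.094 to 0.0096 over all samples left out 1 at a time. C1s (MMT00032503), C3, Cfb (NM_008198) and Cfi were called under every alternative that kept their probe, with adjusted p of at most 0.0324, which is the highest because the exact permutation test cannot go below an unadjusted 0.00794. Called member probes numbered 6 higher, and 4 after quantile normalization, where C1s (MMT00019183) and C4b lost their calls. They numbered 4 with 1 probe a gene, and 3 without probes under the median reference intensity, where the dimmer ones were not tested. With a replicate left out they numbered 6 to 6. Lower member probes numbered 0, and 1, C2, with 0.05 units added to both channels, without probes under the lower quartile of reference intensity and with array weights, and 0 to 1 with a replicate left out. Over all probes, 3678 were higher, 1836 after quantile normalization and 2439 with Cy5 alone, and 3237 to 3600 with a replicate left out. Lower ones numbered 3946, 1667 after quantile normalization and 3408 to 3888 with a replicate left out. In the Cy3 channel 5 probes were called, 3 with median centring, 0 with the replicate block, and 2 to 7 with a replicate left out, of which 3 without db/+ replicate 1 and 2 without db/+ replicate 4; 1113 had an unadjusted p under 0.05. The cause of these changes was not tested.

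With the replicate number as a block, 3549 probes were higher and 3919 lower, and the member counts stayed 6 and 0. Same-numbered samples did not deviate together in a way that pairs them, with correlations of deviations from 0.0306 to 0.205, and only replicates 3 and 4 correlated best with their own number.

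Rounding to 0.01 units limits what can be seen of Cfd, Cd55 and C3ar1, and the lack of dye swaps leaves any dye effect that varies with signal in the ratios. The probes' target sequences were not used here, so the disagreement of the Cfb probes and cross-reading of C4a or C1s2 could not be resolved.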
